A study of Mus musculus with 41 samples.

Results

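Mammary tumors that lacked both Plk2 and p53 were compared with mammary tumors that lacked p53 alone. All 41 samples of the series entered the comparison, 28 Plk2-null p53-null tumors and 13 p53-null tumors, with 1 RNA library per tumor. Genotype was taken from the strain given for each sample. Both groups therefore share the loss of p53, and the comparison asks what else differs in tumors without Plk2. All were mouse tumors of the Balb/c strain that had grown untreated after orthotopic injection into syngeneic hosts. The Plk2-null allele had been crossed onto the Balb/c background before it was combined with loss of p53. Wild-type Balb/c hosts received mammary epithelial cells of the double-null mice in fat pads cleared of endogenous epithelium, and tumors that arose there could be passed on by transplantation. Tumors can therefore share an origin, which the labels do not give, and the p-values treat each tumor as independent. The titles of the 13 p53-null libraries carry a numbered series name (ROSEN) that no Plk2-null p53-null library carries, so library series and genotype cannot be told apart in any result.

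Plk2 (polo-like kinase 2) is a serine/threonine kinase of a small family with roles in cell division. Plk1 acts at mitotic entry, on spindle poles and on kinetochores, Plk4 starts the duplication of centrioles, and Plk2 has been linked to centriole duplication, to the cellular stress response and, in the mammary gland, to the orientation of the spindle. p53 is a transcription factor that induces Plk2 among many other genes. Centrosome, spindle, polarity and DNA repair genes were therefore looked at first, and after them the genes of protein synthesis, energy metabolism, cell identity and signaling.

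Expression is given as the upper-quartile normalized value that the authors deposited, on which the upper quartile of each tumor's nonzero values is 1000. A log2 fold change is the difference in mean log2(value + 1), Plk2-null p53-null minus p53-null, so negative values are lower without Plk2. The added 1 shrinks the fold change of weakly expressed genes. A gene was called where the Benjamini-Hochberg adjusted p of limma was under 0.05. Reads on genes numbered 31910235 to 53244746 in the Plk2-null p53-null tumors and 29409598 to 70868089 in the p53-null tumors, and 3 reads were worth 1.16 to 2.45. Only protein-coding genes were described, without predicted genes (Gm with a number, Rik, RP23- and RP24- names) and -ps pseudogenes.

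Plk2 (chromosome 13, 110395046 to 110400844 of the mm10 build, plus strand) checks the labels. Its value was 36.6 to 553 (median, 284) in the Plk2-null p53-null tumors and 186 to 8028 (median, 3402) in the p53-null tumors. The log2 fold change was -3.39 (SE, 0.38), with an adjusted p of 1.30e-09 by limma, and a 2-sided permutation test with 100000 resamples gave p = 2.0e-05, the smallest it can give. 1 p53-null tumor, p53null-7435, lay inside the range of the Plk2-null p53-null tumors, and without it the log2 fold change was -3.70. Reads on Plk2 were present in every Plk2-null p53-null tumor, above the value of 3 reads in all 28. Where in the transcript they lie was not tested, since the values are totals per gene. Trp53, which encodes p53, had values of 1563 to 3914 (median, 2597) and 349 to 5035 (median, 1818) and was higher in the Plk2-null p53-null tumors, with a log2 fold change of 0.64 (SE, 0.23) and an adjusted p of 0.0215. It is the other gene whose loss the labels give, for both groups, and its totals per gene do not check that label.

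The labelled tissue was checked against epithelial genes. Epcam, an adhesion molecule of epithelial cells, ranged over 9.6 to 37964 (median, 15554) in the Plk2-null p53-null and 81.4 to 61588 (median, 17039) in the p53-null tumors. It was at 9.60 to 87.4 in 3 Plk2-null p53-null tumors (PLK2null-743, PLK2null-733 and PLK2null-732), at 81.4 in the p53-null tumor T11 and at 4249.6 in PLK2null-7763. Those 3 tumors and PLK2null-7763 stood apart in genes of blood vessels. Pecam1, an adhesion molecule of endothelial cells, was at 22792 to 46193 in these 4 tumors and at 500 to 4114 in the other 37. Leaving out all 4 and T11 raised the number of called genes from 5054 to 5599.

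**Figure D1:**
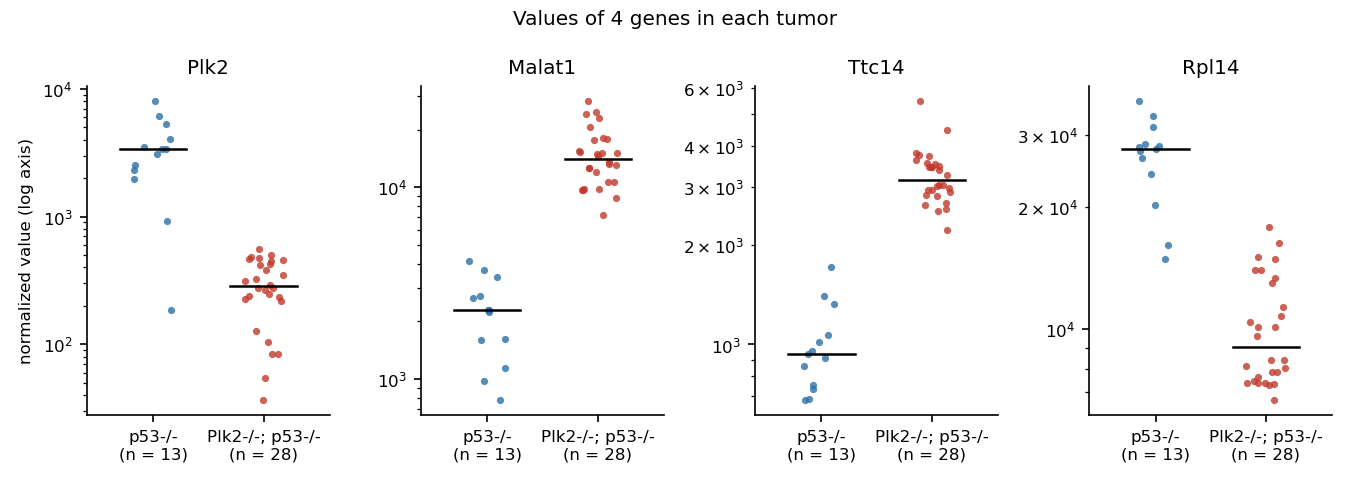
Normalized values of Plk2, the nuclear RNA Malat1, Ttc14 and Rpl14 in each tumor, on a log axis, for the 13 p53-null (blue) and 28 Plk2-null p53-null tumors (red). Points are tumors and black lines medians; for Malat1 and Ttc14 the genotypes do not overlap, while 1 p53-null tumor has a Plk2 value of 186 inside the Plk2-null p53-null range of 36.6 to 553.

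Over 14005 reported genes tested, 5054 were called (36.1%), of which 2929 were higher (20.9%) and 2125 lower (15.2%) in the Plk2-null p53-null tumors. The median log2 fold change of these genes was 0.059. The balance of directions depended on the scaling. After rescaling by median ratios, which moved the median over all genes from 0.097 to -0.018, 2246 genes were higher and 2877 lower, and after quantile normalization 2430 were higher and 2667 lower. With only the 7 Plk2-null p53-null tumors whose 4-digit numbers start with 77, 1923 genes were called (13.7%), 1249 higher (8.92%) and 674 lower (4.81%). In each of the 14 ways in which the values were fitted, 1260 genes were called in the same direction, 708 of them higher and 552 lower.

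The difference between the genotypes moved with the length of the transcript. Genes were sorted into 5 bins of equal size by the length of their longest annotated transcript. The median log2 fold change ran from -0.35 in the shortest bin to -0.096, 0.045, 0.20 and 0.46 in the longest. In the shortest bin 5.97% of genes were higher and 36.8% lower, and in the longest 42.7% were higher and 2.97% lower. The same order held with the 7 tumors numbered 77, from -0.37 to 0.49. By GC content, the median ran from 0.28 in the bin with the lowest to -0.18 in the bin with the highest GC content. Genes with 3 or more annotated transcripts that retain an intron had a median of 0.17, and those with none a median of -0.0070.

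Malat1, a long noncoding RNA that stays in the nucleus, differed in the same way. It was at 7191 to 28249 (median, 14037) in the Plk2-null p53-null tumors and at 778 to 4139 (median, 2291) in the p53-null tumors, with no overlap. Neat1, the nuclear RNA that builds paraspeckles, was at 11210.4 to 53429 (median, 22282) and 1218 to 21909 (median, 6776). Library series and genotype coincide, so their parts in this pattern cannot be told apart. List results are therefore also given after an adjustment that removes from each tumor its own median shift in 10 bins of length by 10 bins of GC content. Length is that of the longest annotated transcript, which need not be the form expressed, so a gene can be misplaced. Rpl18 was placed at 2989 bases and Atp5g1 at 4715. Their log2 fold changes were -1.33 and -1.31 before the adjustment and -1.34 and -1.58 after it. In the shortest of the 5 length bins the median was still -0.14, with 22.5% of genes lower. After that adjustment 4114 of 13984 reported genes were called (29.4%), 1725 higher (12.3%) and 2389 lower (17.1%). Of the 2929 higher genes 1563 were called again in the same direction, as were 1608 of the 2125 lower genes.

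**Figure D2:**
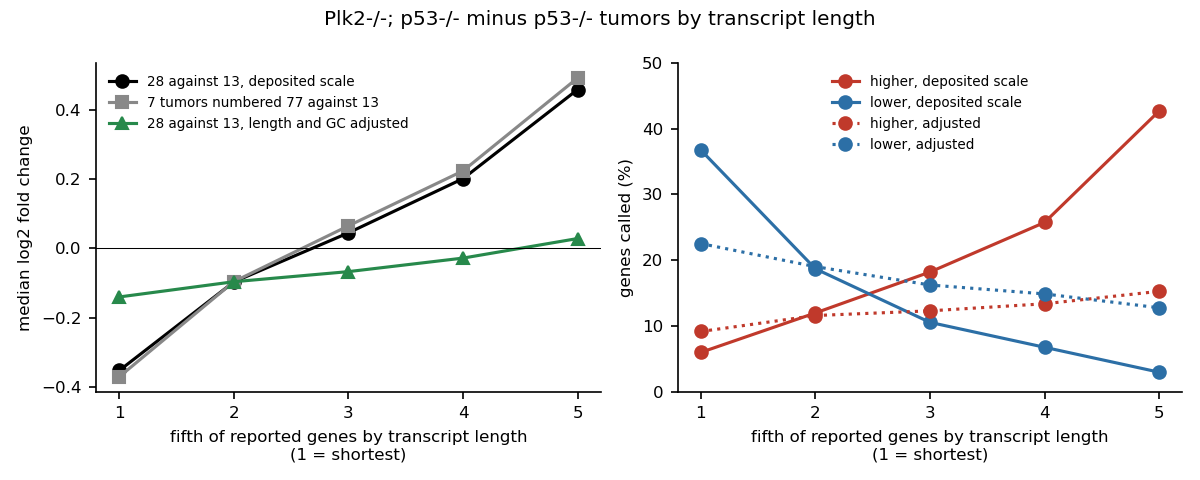
Median log2 fold change (left) and percent of genes called (right) in 5 bins of the reported genes by transcript length, from the shortest (1) to the longest (5), before and after the length and GC adjustment, with the 7 tumors numbered 77 in gray. The median runs from -0.35 to 0.46 on the deposited scale and from -0.14 to 0.029 after the adjustment.

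Of the polo-like kinases, Plk3 and Plk4 were higher in the Plk2-null p53-null tumors, and Plk1 did not pass the test. Plk3, a stress-responsive member (chromosome 4, 117128655 to 117133963), was at 177 to 1456 (median, 514) in the Plk2-null p53-null and 101 to 854 (median, 289.6) in the p53-null tumors, a log2 fold change of 0.71 (SE, 0.23) with an adjusted p of 0.0112 by limma. Plk4, which starts centriole duplication (chromosome 3, 40800019 to 40816883), was at 628 to 1709 (median, 912) and 264 to 1555 (median, 741), with a log2 fold change of 0.44 (SE, 0.17) and an adjusted p of 0.032. The groups overlapped widely for both. Plk1 (chromosome 7, 122159439 to 122169873) had a mean of 1378 ± 358 (SD, n = 28) without Plk2 and of 1458 ± 902 (SD, n = 13) with it, and its log2 fold change was 0.12 (SE, 0.20) (adjusted p = 0.667). After the length and GC adjustment the log2 fold change of Plk3 was 0.91 (adjusted p = 0.00279) and that of Plk4 0.17 (adjusted p = 0.455). With the 7 tumors numbered 77 neither passed, with adjusted p-values of 0.304 and 0.256, and after rescaling by median ratios the adjusted p of Plk4 was 0.113. Plk5, a member without kinase activity, was below the filter of a mean of 10, at 0 to 18.1 and 0 to 50.4.

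Genes of the centriole and centrosome were higher in the Plk2-null p53-null tumors. Of 26 tested, 16 rose and 1 fell, against 20.9% and 15.2% of all reported genes, and their median log2 fold change was 0.57. Cep250, which links the centrosomes of a cell, was at 1128 to 2890.5 (median, 2142) in the Plk2-null p53-null and 478 to 1528 (median, 1019) in the p53-null tumors, 2.17-fold higher (log2 fold change, 1.12 ± 0.14 SE; adjusted p = 2.13e-08 by limma). Cep192, a scaffold that recruits Plk4 and Aurora A, was at 978 to 3151 (median, 1314) and 251 to 941 (median, 688). Every Plk2-null p53-null tumor lay above every p53-null tumor for this gene, which held for 50 reported genes in all (0.357%). Cep135, a component of the centriole cartwheel, rose by a log2 fold change of 1.17 (SE, 0.15). Cetn2, a centrin of the centriole and the member with the opposite direction, was at 349 to 1120.5 (median, 672) and 616 to 2350.0 (median, 1044) and fell, with a log2 fold change of -0.67 (SE, 0.16) and an adjusted p of 0.000689. With the length and GC adjustment 12 members were called higher and 2 lower and the median was 0.28, with 11 higher and 0 lower among the 7 tumors numbered 77. The mean log2 level of the list was 9.31 to 10.04 in the Plk2-null p53-null and 8.58 to 9.64 in the p53-null tumors, and 11 of the 13 p53-null tumors lay below all others.

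Spindle and kinetochore genes did not move together. Of 33 tested, 4 rose (12.1%) and 3 fell (9.09%), below the 20.9% and 15.2% of all reported genes. The median log2 fold change was 0.021. After rescaling by median ratios 1 was higher and 6 were lower. Cenpe, a kinetochore motor, rose, at 1115 to 3515 (median, 1733) in the Plk2-null p53-null and 435 to 2182 (median, 1331) in the p53-null tumors (log2 fold change, 0.72 ± 0.19 SE; adjusted p = 0.00263), and Cenpi and Prc1, a kinetochore protein and a bundler of spindle microtubules, rose, with log2 fold changes of 0.51 and 0.41. Pttg1, the securin that holds back sister chromatid separation, fell. It was at 280.2 to 876 (median, 562) in the Plk2-null p53-null and 494 to 3052 (median, 1097) in the p53-null tumors, with a log2 fold change of -1.03 (SE, 0.20) and an adjusted p of 4.93e-05. Cdc20, the activator of the anaphase-promoting complex, fell, with a log2 fold change of -0.85 (adjusted p = 0.00331). Once length and GC were adjusted for, 0 members were called higher and 3 lower. The mean log2 level of the list overlapped, 9.53 to 10.98 against 9.23 to 11.11.

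Of 25 genes of spindle orientation and cell polarity, 3 rose and 0 fell, below the share of all reported genes in both directions, and after rescaling by median ratios 2 were higher and 3 lower. Without PLK2null-732, PLK2null-733, PLK2null-743 and T11, 3 were higher and 5 lower. The 3 that rose were Dlg5 and Dlg1, scaffolds of the cell cortex, and Numa1, which ties spindle microtubules to dynein, with log2 fold changes of 0.70 (SE, 0.18), 0.48 (SE, 0.13) and 0.30 (SE, 0.12). None of the 3 was called after the length and GC adjustment, with adjusted p-values of 0.11, 0.567 and 0.8, and the log2 fold change of Numa1 was then -0.044. Under that adjustment 0 members of the list were higher and 4 lower.

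DNA repair and checkpoint genes were higher on the deposited scale, and less so by their counts after the adjustment. Of 43 tested, 19 rose (44.2%) and 3 fell (6.98%), against 20.9% and 15.2% of all reported genes, with a median log2 fold change of 0.31. Trp53bp1, which marks double-strand breaks, was at 1912 to 4479.6 (median, 2989) in the Plk2-null p53-null and 953 to 3157 (median, 1733) in the p53-null tumors (log2 fold change, 0.90 ± 0.13 SE; adjusted p = 8.38e-07). Atm, the kinase that signals breaks, was at 354 to 1598 (median, 880.3) and 162 to 824 (median, 385), with a log2 fold change of 1.19 (SE, 0.21). Palb2, the partner of Brca2, rose, with a log2 fold change of 0.81. Atrip, the partner of the Atr kinase, was at 50.1 to 434 (median, 167) and 186 to 410.3 (median, 286) and fell, with a log2 fold change of -0.91 (adjusted p = 0.00312), and Xrcc1, a scaffold of single-strand break repair, fell, with a log2 fold change of -0.31. After the length and GC adjustment 7 members were higher (16.3%, against 12.3% of all reported genes) and 4 lower, with a median of 0.12. Trp53bp1 was then not called (log2 fold change, 0.29; adjusted p = 0.0896), while Atm, Palb2 and Atrip were, at 0.64, 0.58 and -0.94. Among the 7 tumors numbered 77 the count was 5 higher (11.6%, against 8.92%) and 1 lower, and without p53null-7435 1 member was lower in place of 3.

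Of the 62 lists, that of the cytosolic ribosome had the highest share of called genes. Of 64 members tested, 59 fell and 0 rose in the Plk2-null p53-null tumors, against 15.2% of reported genes that were lower, and the median log2 fold change was -0.90. The other 5, Rps26, Rpl23, Rps7, Rpl39l and Rpl3l, did not pass the test and had log2 fold changes from -0.51 to -0.078. Rpl14 (chromosome 9, 120571444 to 120574654) was at 6707 to 17819.8 (median, 9041) in the Plk2-null p53-null and 14870.2 to 36338 (median, 27686) in the p53-null tumors, 2.59-fold lower, with a log2 fold change of -1.37 (SE, 0.14) and an adjusted p of 1.95e-10. Rpl18 was at 6719 to 17888 (median, 9985) and 14111 to 43463 (median, 22789.9), with a log2 fold change of -1.33 (SE, 0.14). Rplp1, of the stalk that binds elongation factors, was at 12739 to 39699 (median, 24199.6) and 35408 to 88009 (median, 56728), with a log2 fold change of -1.29 (SE, 0.14). The ranges of the genotypes overlapped for each of the 3, while every p53-null median lay above the highest Plk2-null p53-null value. Many ribosomal protein genes have processed copies elsewhere in the genome, and how reads were shared between copies is not given in the sources used here.

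Ribosomal protein genes are known for transcripts that begin with a run of pyrimidines. The 4 called members with the smallest p that have an entry in the RefSeq start table, and the 2 respiratory chain genes named below, are shown over 30 bases of GRCm38.p6, from 15 before to 15 after the annotated start, with any run of 8 or more C or T that opens with C in capitals. The lines give the gene strand, 5′ to 3′.
Rpl14, chr9:120571502-120571531, plus strand: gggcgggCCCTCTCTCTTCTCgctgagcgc
Rpl18, chr7:45718056-45718085, plus strand: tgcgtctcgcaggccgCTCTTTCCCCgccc
Rps9, chr7:3704026-3704055, plus strand: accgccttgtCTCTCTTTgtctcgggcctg
Rps15, chr10:80292416-80292445, plus strand: cccggcagagctcgcgataactgcgcaagc
Atp5g1, chr11:96075617-96075646, minus strand: ccaagggctaaagctgggaggtgagtcagt
Ndufs7, chr10:80249434-80249463, plus strand: tggaggacggaccgcagaggttgtctgaag
Rpl14, Rpl18 and Rps9 hold such a run, and Rps15 does not within this window. Over all 32851 RefSeq start windows, 9.26% hold one, and 10.3% hold its complement on the other strand. Windows were found for 50 of the 64 ribosomal protein genes and for 78.4% of the reported genes tested, too few for a count over the list.

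Among the 10 genes with the smallest p that fell were Rps27rt, Rpl36, Fau and Btf3. Rps27rt, a retrotransposed copy whose reads can be shared with its near-identical parent gene, was at 149.8 to 750.0 (median, 357) in the Plk2-null p53-null and 771 to 2639.9 (median, 1239.7) in the p53-null tumors without overlap (log2 fold change, -1.95 ± 0.19 SE; adjusted p = 5.53e-11). Such a lack of overlap in this direction held for 4 reported genes in all (0.0286%), the others being Rpl3, Mrpl14 and Rabac1, chosen after their values were seen. Rpl36 and Fau, which encodes a ribosomal protein fused to a ubiquitin-like domain, had log2 fold changes of -1.41 (SE, 0.15) and -1.41 (SE, 0.15), and Btf3, of the complex that meets nascent chains, one of -0.85 (SE, 0.09). After the length and GC adjustment 50 of the 64 ribosomal protein genes were lower and 0 higher, with a median of -0.65. In the 7 tumors numbered 77 the count was again 50 lower and 0 higher, with a median of -0.87.

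**Figure D3:**
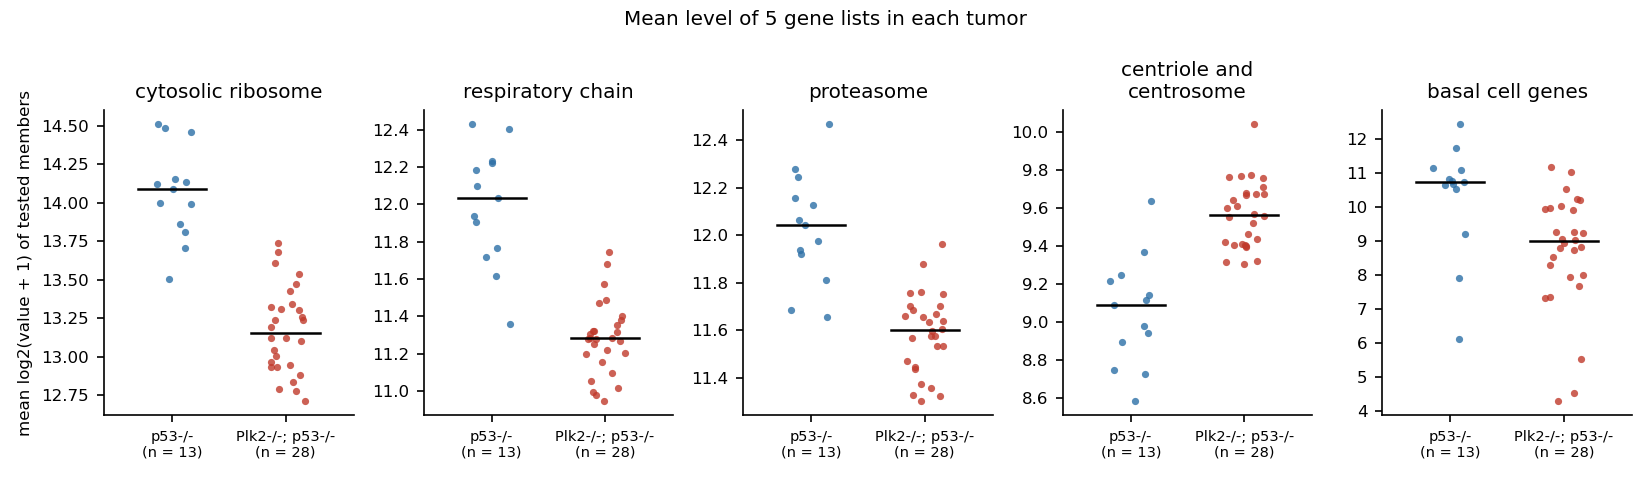
Mean log2(value + 1) of the tested members of 5 gene lists in each tumor, for the 13 p53-null (blue) and 28 Plk2-null p53-null tumors (red). Lines are medians; 24 of the 28 Plk2-null p53-null tumors lie below every p53-null tumor for the cytosolic ribosome and 21 for the respiratory chain, while the basal cell genes overlap.

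Per tumor, the mean log2 level of the ribosomal protein genes was 12.71 to 13.74 in the Plk2-null p53-null tumors (median, 13.16) and 13.51 to 14.51 in the p53-null tumors (median, 14.09). The plot of list levels by tumor shows the same order for the respiratory chain, at 10.95 to 11.74 (median, 11.28) against 11.36 to 12.43 (median, 12.03). Within a genotype the ribosomal level was set against Malat1, both on the log2 scale. Among the 28 Plk2-null p53-null tumors Pearson's r was 0.40 (permutation p = 0.0367) and Spearman's rho 0.43 (permutation p = 0.0220), and r was 0.43 without the 2 tumors farthest from the median of Malat1. Among the 13 p53-null tumors r was -0.17 (permutation p = 0.586) and rho -0.25 (permutation p = 0.406), and r was -0.37 without the 2 farthest. Over the 6 relations computed, which also set the respiratory chain and the centrosome list against Malat1, the smallest adjusted p was 0.132.

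Nuclear-encoded genes of the respiratory chain fell as a group as well. Of 47 tested, 41 fell (87.2%, against 15.2% of all reported genes) and 0 rose, with a median log2 fold change of -0.67. Atp5g1, a subunit c gene of ATP synthase, was at 861 to 2399 (median, 1456) in the Plk2-null p53-null and 2299 to 5579.6 (median, 4041) in the p53-null tumors, 2.47-fold lower (log2 fold change, -1.31 ± 0.13 SE; adjusted p = 8.71e-11). Ndufs7, of complex I, was at 636 to 1417 (median, 839) and 1057 to 3879.6 (median, 2401), with a log2 fold change of -1.28 (SE, 0.14). Uqcrc1, a core subunit of complex III, had a log2 fold change of -1.04 (SE, 0.12). Adjusted for length and GC, which left part of the length trend, 34 of 46 were lower and 0 higher (median, -0.51). With the 7 tumors numbered 77, 27 of 47 were lower and 0 higher. The genes that the mitochondrial genome itself encodes were not analysed here.

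The mitochondrial ribosome and the tricarboxylic acid cycle moved in the same direction. Of 36 mitochondrial ribosomal protein genes 24 fell and 1 rose (median, -0.46). Mrpl28 and Mrps16 fell, with log2 fold changes of -1.27 and -1.34, and Mrpl2 with one of -0.77, while Mrps2 rose, at 817 to 1741 (median, 1167) and 573 to 1635 (median, 854) (log2 fold change, 0.37 ± 0.12 SE; adjusted p = 0.016). Mrpl52 and Timm13, an import chaperone of the mitochondrial intermembrane space, were among the 10 reported genes with the smallest p that fell, at -1.02 (SE, 0.11) and -1.30 (SE, 0.14). Of 20 genes of the cycle and of pyruvate entry 9 fell and 0 rose (median, -0.32). Mdh2, Fh1 and Suclg1, which encode malate dehydrogenase, fumarase and a subunit of succinyl-CoA synthetase, fell, with log2 fold changes of -0.72, -0.75 and -0.73. After the length and GC adjustment the counts were 18 lower and 1 higher of 36, and 11 lower and 0 higher of 20, and Mrpl2 was not called (adjusted p = 0.164). With the 7 tumors numbered 77, 12 mitochondrial ribosomal protein genes and 4 genes of the cycle were lower and 0 higher. Across all reported genes 15.2% were lower on the deposited scale, 17.1% after the adjustment and 4.81% with the 7 tumors.

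Of 31 proteasome genes 21 fell and 0 rose, with a median log2 fold change of -0.36. Psmb5, which carries the chymotrypsin-like site, was at 901 to 1963.4 (median, 1125) in the Plk2-null p53-null and 1698 to 4042 (median, 2719) in the p53-null tumors, 2.21-fold lower (log2 fold change, -1.14 ± 0.12 SE; adjusted p = 1.74e-10). Psma6 and Psmb1, core subunits as well, fell, with log2 fold changes of -0.93 and -0.73. The adjustment for length and GC left 19 lower and 0 higher (median, -0.32), and the 7 tumors numbered 77 gave 10 lower and 0 higher. The share of all reported genes that was lower was 15.2%, and 17.1% and 4.81% in these other fits.

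**Figure D4:**
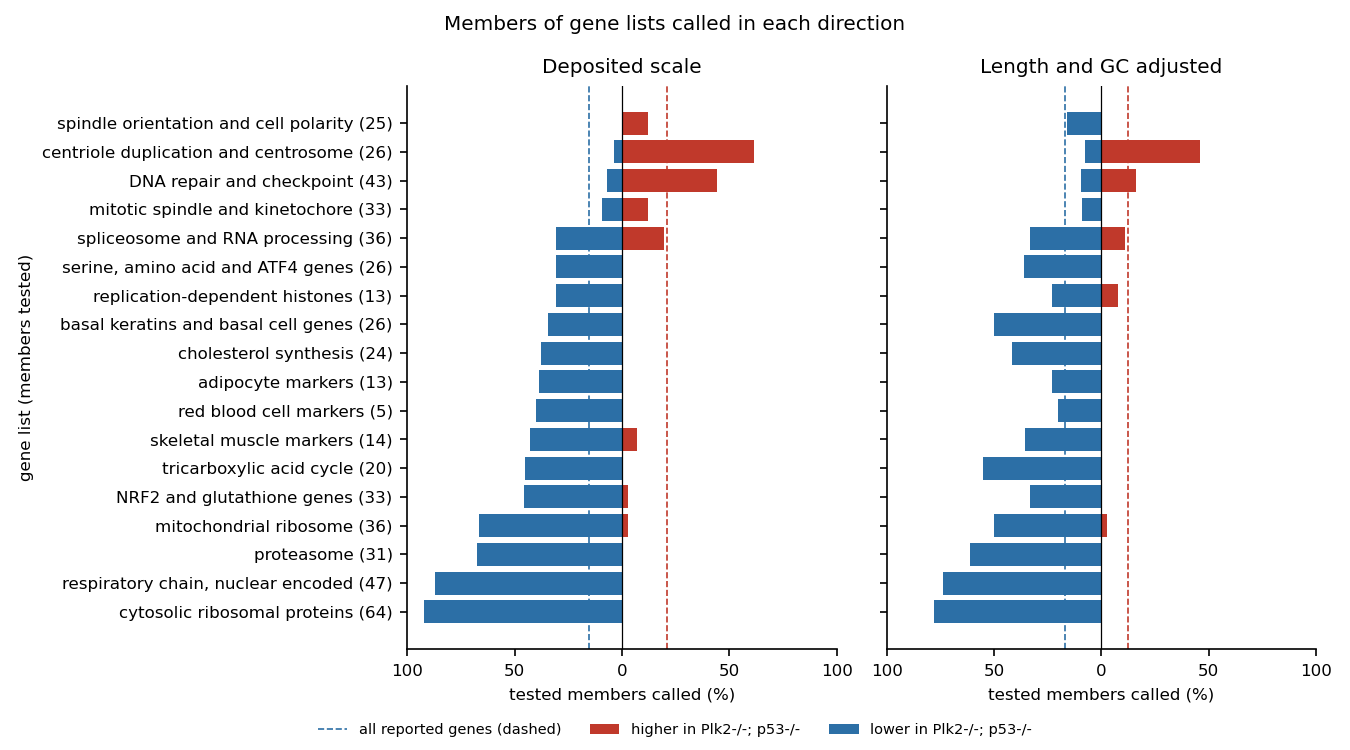
Percent of the tested members of each described gene list with 5 or more tested members called higher (red, to the right) or lower (blue, to the left) in Plk2-null p53-null tumors, on the deposited scale and after the length and GC adjustment. Numbers in parentheses are members tested and dashed lines the percent over all reported genes; the cytosolic ribosome (64) and the respiratory chain (47) reach farthest to the left in both panels, and the centriole list (26) farthest to the right.

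Genes of the antioxidant, serine and cholesterol pathways were lower more often than higher. Of 33 NRF2 and glutathione genes 15 fell and 1 rose (median, -0.55). Gstp1, a glutathione transferase, was at 1433 to 4339 (median, 2435) in the Plk2-null p53-null and 3590.4 to 7476 (median, 4739) in the p53-null tumors (log2 fold change, -0.96 ± 0.14 SE; adjusted p = 4.58e-07), and the pentose phosphate enzymes Tkt and Taldo1 fell, with log2 fold changes of -0.96 and -0.95. Gclc, the catalytic subunit of the first enzyme of glutathione synthesis, was the 1 member that rose, at 434 to 1846 (median, 1115) and 396 to 1246 (median, 637) (log2 fold change, 0.62 ± 0.17 SE), and it was not called after the length and GC adjustment (adjusted p = 0.0604). That adjustment left 11 of the 33 lower and 0 higher, and with the 7 tumors numbered 77 5 were lower and 1 was higher. All reported genes were lower in 15.2% on the deposited scale, 17.1% after the adjustment and 4.81% with the 7 tumors.

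Of 26 serine, amino acid and ATF4 genes 8 fell and 0 rose (median, -0.56). Phgdh, the entry enzyme of serine synthesis (chromosome 3, 98313170 to 98339990), was at 82.2 to 4598 (median, 1203) in the Plk2-null p53-null and 1258 to 9164 (median, 3065) in the p53-null tumors, 3.54-fold lower (log2 fold change, -1.82 ± 0.42 SE; adjusted p = 0.000491). Its lowest values, 82.2, 97.0 and 123, were those of PLK2null-743, PLK2null-733 and PLK2null-732. Without these tumors and T11 the log2 fold change of Phgdh was -1.32 (SE, 0.30). Psph, the last enzyme of the same path, was at 329 to 1388 (median, 672) and 753 to 2904 (median, 1549) (log2 fold change, -1.09 ± 0.20 SE), and Pck2, the mitochondrial PEP carboxykinase, fell, with a log2 fold change of -0.91. Phgdh and Psph were also called with the 7 tumors numbered 77 (adjusted p = 0.00899 and 0.0198) and after the length and GC adjustment (0.00223 and 4.93e-05), which gave 9 lower and 0 higher of 25. The 7 tumors gave 2 lower and 0 higher of 26, where 4.81% of all reported genes were lower, so this count rests on few genes. The overall share lower was 15.2% on the deposited scale and 17.1% after the adjustment.

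Of 24 cholesterol synthesis genes 9 fell and 0 rose (median, -0.31). Mvk and Fdps, enzymes of the mevalonate path, fell, with log2 fold changes of -0.85 (SE, 0.16) and -0.86 (SE, 0.19). The count after the length and GC adjustment was 10 lower and 0 higher, and with the 7 tumors numbered 77 it was 3 and 0. Lower over all reported genes were 15.2% on the deposited scale, 17.1% after the adjustment and 4.81% with the 7 tumors.

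The 10 genes with the smallest p that rose were among the 50 reported genes (0.357%) that were higher without overlap between the genotypes. They were picked by p in the same data, so their lack of overlap is not a separate result. Ttc14 (chromosome 3, 33799832 to 33814860) was at 2228 to 5473 (median, 3151) in the Plk2-null p53-null and 678 to 1717 (median, 933) in the p53-null tumors, 3.33-fold higher (log2 fold change, 1.74 ± 0.11 SE; adjusted p = 6.02e-16 by limma). Tnrc6a, a scaffold of microRNA silencing, was at 2772 to 5203 (median, 3925) and 1176 to 2249 (median, 1477), and Srsf11, an SR-family splicing factor, at 5511 to 9530.2 (median, 7169) and 1929.9 to 3767 (median, 3218). Leng8 had the largest change of the 10, 4.88-fold higher, at 5201 to 15387 (median, 9078) and 876 to 3522 (median, 2114). The other 6 were Fnbp4, Ankrd16, Uvssa of transcription-coupled repair, Cspp1 of the spindle pole, the RNA-binding Rbm33 and the splicing regulator Srek1, with log2 fold changes from 1.27 to 1.99. Each of the 10 was also called after the length and GC adjustment, where Srek1 was at 0.85 and Leng8 at 2.10.

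The spliceosome list held genes of both directions. Of 36 tested, 11 fell (30.6%) and 7 rose (19.4%), with a median of -0.18. Among all reported genes 15.2% fell and 20.9% rose, so only the share that fell lay above that of all genes. Snrpd2, Snrpb and Prpf19, a pair of Sm proteins and a core factor of the active spliceosome, fell, with log2 fold changes of -1.50 (SE, 0.17), -0.84 (SE, 0.12) and -0.65 (SE, 0.11). Srsf5, an SR protein, rose from a range of 2974 to 6449.7 (median, 4033) in the p53-null to 5529 to 13871 (median, 9034) in the Plk2-null p53-null tumors (log2 fold change, 1.13 ± 0.11 SE; adjusted p = 7.48e-11), and Srsf1 rose, with a log2 fold change of 0.50. Srsf5 was called again after the length and GC adjustment (1.15), and Srsf1 was not (adjusted p = 0.501). Transcripts of replication-dependent histone genes lack the poly(A) tail that these libraries select, and 13 of 44 passed the filter. Of these 13, 4 fell (30.8%) and 0 rose, among them Hist1h2bl, Hist1h2bk and Hist1h1c, with log2 fold changes of -2.21, -1.79 and -0.98. Hist1h1c was not called after the length and GC adjustment (adjusted p = 0.0575 by limma).

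Basal epithelial genes were lower in the Plk2-null p53-null tumors. Of 26 tested, 9 fell (34.6%, against 15.2% of all reported genes) and 0 rose, with a median log2 fold change of -1.43. Dsc3, a desmosomal cadherin of stratified epithelium, was at 0 to 637 (median, 1.59) in the Plk2-null p53-null and 0 to 2730.4 (median, 162) in the p53-null tumors (log2 fold change, -3.65 ± 0.99 SE; adjusted p = 0.00286). Krt15 was at 0 to 1383 (median, 81.0) and 1.3 to 57844 (median, 1197), with a log2 fold change of -3.29 (SE, 0.93), and Krt6a at 0 to 834 (median, 169.6) and 39.0 to 40512 (median, 794), with one of -3.13 (SE, 0.91). The genotypes overlapped for all 3, and the spread within each was wide. Without PLK2null-732, PLK2null-733, PLK2null-743 and T11, 14 members were lower and 2 higher, and with the 7 tumors numbered 77 none of the 26 was called (median, -0.80). The length and GC adjustment gave 13 lower and 0 higher. In whole tumors, fewer cells of a type and less RNA per cell cannot be told apart. The luminal list had 1 of 31 members lower and 0 higher, and Krt8, a luminal keratin, was at 9.6 to 38600.0 (median, 17548) and 198 to 116097 (median, 35587) (adjusted p = 0.246).

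Some markers of adipocytes, skeletal muscle and red blood cells fell as well. The shares that fell were 38.5% of 13, 42.9% of 14 and 40% of 5 tested markers, against 15.2% of all reported genes. The adipocyte marker Retn and the muscle markers Myh2 and Pvalb passed the filter only through the p53-null tumors. The adipocyte and muscle shares therefore do not show a direction by themselves. Of 13 adipocyte markers 5 fell and 0 rose, and the summed value of all 16 markers in the table was 2269 to 130630 in the Plk2-null p53-null (median, 3490.2) and 1911 to 11842 in the p53-null tumors (median, 5957). Pnpla2, a lipase that is also made outside fat, fell, with a log2 fold change of -0.69 (SE, 0.16), and Cidec, a lipid droplet protein, was at 0 to 218 (median, 4.09) and 1.2 to 202 (median, 40.3). Car3, an anhydrase of fat and muscle, fell, with a log2 fold change of -2.72. With the 7 tumors numbered 77 none of the 13 was called, and without PLK2null-732, PLK2null-733, PLK2null-743 and T11 8 were lower.

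Of 14 skeletal muscle markers 6 fell and 1 rose, and this rested on p53null-2153L and p53null-7435. Their mean log2 level of the list was 10.03 and 10.69, against 2.26 to 5.34 in the other 11 p53-null tumors and 2.01 to 8.09 in the Plk2-null p53-null tumors. Without both, an alternative chosen after seeing the data, 0 of 11 tested markers were lower and 2 higher, and without either of them 2 were lower. The sum was 87.9 to 4953 in the Plk2-null p53-null (median, 416) and 108 to 50688 in the p53-null tumors (median, 429), and 5 members were at or under the value of 3 reads in 50% or more of the tumors. Acta1, the actin of the muscle fiber, was at 9883 to 9952 in p53null-2153L and p53null-7435, at 0 to 253 in the other p53-null tumors and at 0 to 1211 in the Plk2-null p53-null tumors. Ckm, the muscle creatine kinase, was called too, with a p53-null median of 5.68, and so was Pvalb, a calcium buffer with medians of 0 and 2.10 that passed the filter only through the p53-null tumors. Ttn, the giant sarcomere protein, rose, with a log2 fold change of 1.75 (adjusted p = 0.0493). None was called with the 7 tumors numbered 77. Of 5 red blood cell markers Hba-a2 and Hbb-bt fell, with log2 fold changes of -2.04 (SE, 0.69) and -2.39 (SE, 0.81), and without PLK2null-732, PLK2null-733, PLK2null-743 and T11 all 5 were called lower, as they were with the 7 tumors numbered 77. Hba-a2 was at 56.9 to 102511 (median, 662) and 1257 to 16957 (median, 4492). Globin genes have near-identical copies, and the split of reads between copies is uncertain.

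Markers of white blood cells and of the stroma were described by counts. Of 14 neutrophil markers 4 rose and 0 fell (median, 1.12), and the sum over all 18 listed was 1256 to 269897 in the Plk2-null p53-null (median, 81592) and 5159 to 440732 in the p53-null tumors (median, 19595). Of 18 macrophage markers 5 rose (27.8%) and 0 fell, and of 16 fibroblast markers 0 rose and 4 fell (25%). Of 17 blood endothelium markers 1 rose and 0 fell. The share of neutrophil markers that rose was 28.6%. Among all reported genes 20.9% rose and 15.2% fell, so these counts lie not far from that share and rest on few genes. None of the 15 T cell markers was called, with a median of -0.055, and none of the 11 tested genes of MHC class II presentation. Without PLK2null-732, PLK2null-733, PLK2null-743 and T11, 7 neutrophil markers were higher, 3 T cell markers were lower and 5 luminal genes were lower. In that fit 21.8% of all reported genes were higher and 17.4% lower. Ptprc, the common leukocyte antigen, was at 359 to 3653 (median, 1167) in the Plk2-null p53-null and 220.2 to 1466 (median, 431) in the p53-null tumors and was higher, with a log2 fold change of 1.17 (SE, 0.26) and an adjusted p of 0.000368. What part these cells have in the gene lists above was not tested.

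Signaling lists were given by counts. Of 27 genes of Ras and MAPK signaling 11 rose and 3 fell (median, 0.33), of 24 Hippo genes 8 rose and 1 fell (0.30), of 43 interferon-stimulated genes 8 rose and 0 fell (0.57) and of 30 chromatin regulators 12 rose and 2 fell (0.33). After the length and GC adjustment these counts were 5 and 4, 2 and 2, 3 and 0, and 7 and 2. With the 7 tumors numbered 77 they were 5 and 1, 2 and 0, 0 and 0, and 5 and 0. Among all reported genes 12.3% were higher and 17.1% lower under the adjustment. With the 7 tumors those shares were 8.92% and 4.81%. Read against 20.9% and 15.2% of all reported genes on the deposited scale, 18.6% of the interferon list was higher and none of it lower. Leaving out p53null-7435 gave 17 interferon-stimulated genes higher and 0 lower, where 21.8% of all reported genes were higher and 14.4% lower. That tumor had the highest mean log2 level of the interferon list among the p53-null tumors, at 11.92. Leaving it out therefore lowers the p53-null level of the list. The counts were 4 and 2 of 22 for Notch, 4 and 6 of 42 for Wnt, 5 and 1 of 34 for TGF-beta and BMP and 6 and 1 of 28 for PI3K, AKT and mTOR genes. Of 26 p53 target genes, a list that holds Plk2 itself, 3 rose and 4 fell, and of 32 DNA replication genes 4 rose and 3 fell.

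The largest changes among genes that were also called with the 7 tumors numbered 77 and without PLK2null-732, PLK2null-733, PLK2null-743 and T11 were led by Col25a1 and Hoxa3. Col25a1, a transmembrane collagen (chromosome 3, 130131501 to 130599877), was at 81.7 to 6109 in the Plk2-null p53-null and 0.703 to 1072 in the p53-null tumors, with a log2 fold change of 4.45 (SE, 0.65) and an adjusted p of 4.61e-07. Hoxa3, a homeobox gene of body patterning (chromosome 6, 52169062 to 52213336), was at 153 to 4903 (median, 488) and 1.29 to 561 (median, 22.1) (log2 fold change, 4.16 ± 0.59 SE; adjusted p = 2.65e-07), and its neighbour in the cluster Hoxa4 at 22.9 to 911 (median, 135) and 0 to 183 (median, 5.78) (log2 fold change, 3.70 ± 0.57 SE). Each of these 3 was called in all 14 fits.

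In the other direction Plk2 stood beside Retnla, Clec3b, Cldn9 and Tnxb. Clec3b, which encodes tetranectin, was at 0 to 311 (median, 9.65) in the Plk2-null p53-null and 12.9 to 1372 (median, 74.0) in the p53-null tumors (log2 fold change, -3.35 ± 0.69 SE; adjusted p = 0.000144). Tnxb, a tenascin of connective tissue, was at 0 to 2241 (median, 16.6) and 29.6 to 4816 (median, 398), with a log2 fold change of -3.03 (SE, 0.91). Retnla, a secreted protein of alternatively activated macrophages, was at 0 to 139 (median, 0.602) and 1.3 to 1584 (median, 63.9), and Cldn9, a claudin, at 0 to 54.3 (median, 4.41) and 2.62 to 2050.4 (median, 53.3). The medians of Retnla and Cldn9 without Plk2 lie at 0.602 and 4.41, near the value of 3 reads or under it, and Cldn9 passed the filter only through the p53-null tumors. The pseudocount weighs on their log2 fold changes of -3.94 and -3.16.

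Genes around Plk2 on chromosome 13 were examined because backcrossing a deleted allele can leave DNA of the earlier strain around it. Of 29 tested genes within 5 Mb of Plk2, Plk2 left out, 6 were called (20.7%), 4 higher and 2 lower, against 36.1% of all reported genes and 37.3% of the 502 tested on the whole chromosome. Slc38a9, a lysosomal amino acid sensor, was at 269 to 904 (median, 432) in the Plk2-null p53-null and 84.8 to 428 (median, 214) in the p53-null tumors (log2 fold change, 1.06 ± 0.18 SE; adjusted p = 9.55e-06). Ndufs4, of complex I, was at 548 to 1643 (median, 1048) and 1256 to 2398 (median, 1861) (log2 fold change, -0.89 ± 0.15 SE), and Itga2, an integrin collagen receptor, at 95.8 to 786 (median, 300.0) and 12.7 to 296 (median, 92.4) (log2 fold change, 1.54 ± 0.34 SE). Pde4d, a cyclic AMP phosphodiesterase and the called gene closest to Plk2, rose, with a log2 fold change of 0.79, Mier3 rose, with a log2 fold change of 0.33 and Ercc8, a gene of transcription-coupled repair, fell, with a log2 fold change of -0.44. Pde4d and Mier3 were not called after the length and GC adjustment (adjusted p = 0.0952 and 0.578), under which 10 of the 29 genes were called. The share around Plk2 was thus below that of all reported genes on the deposited scale, and after the adjustment it was 34.5%, against 29.4%.

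**Figure D5:**
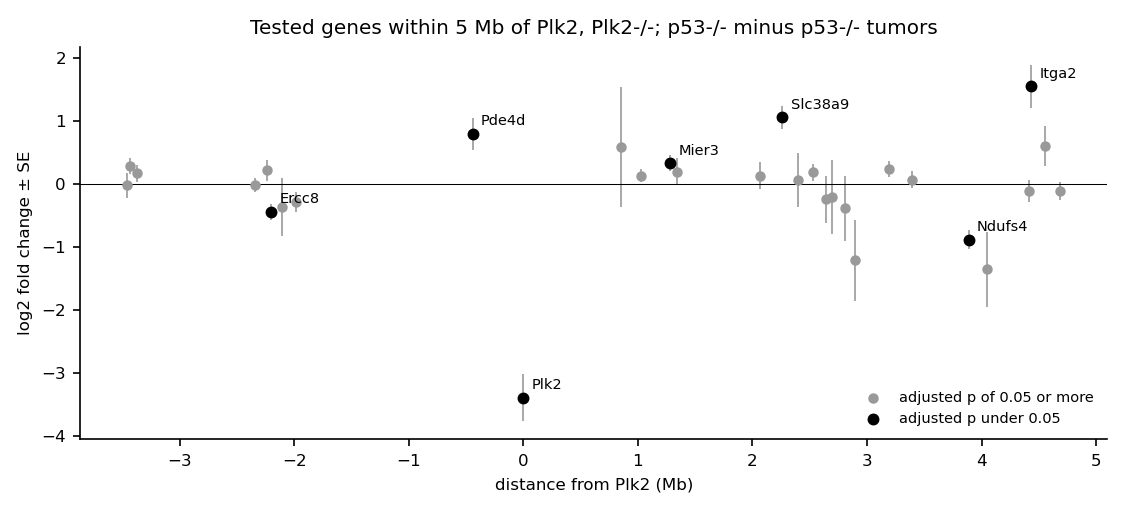
Log2 fold change with its standard error (SE) of the 30 tested genes within 5 Mb of Plk2, against distance from Plk2 in Mb. Black points were called and are named; Plk2 itself lies at -3.39, and the called neighbours lie between -0.89 and 1.54.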

How the data were processed

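RNA was sequenced from 28 Plk2-null p53-null and 13 p53-null tumors as poly(A)-selected TruSeq libraries in paired 50-base reads. Per the labels and the study's methods, the authors aligned reads with STAR 2.7.6a to mm10, quantified them with Salmon 1.4.0 and deposited upper-quartile normalized gene values, a linear signal scaled to an upper quartile of 1000. The annotation is not given in the sources used here. Read depth was taken from the most frequent low nonzero value of each tumor, counted as a single read. Only 77.8 to 80.5% of values came within 0.1 of a whole number of reads, so no count model was used.

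Differences between genotypes were tested by limma (version 3.58.1, R 4.3.3) on log2(value + 1), over all genes with a mean of at least 10 (17208 tested, 6802 called), with Benjamini-Hochberg adjustment at 0.05 over that table, and 14005 protein-coding genes were reported. Positions, lengths and GC content came from GENCODE mouse annotation on GRCm38, matched by symbol for 95.2% of 47480 symbols, and start sequences from RefSeq. The script was tested on simulated data with known changes. The members and the gene lists were chosen with earlier results of these data known. Genes were named by rule: the polo-like kinases, the 10 in each direction with the smallest p, the 5 in each direction with the largest change that held in both subsets of tumors, called genes within 5 Mb of Plk2, and in each described list the 3 with the smallest p in the main and 2 in the other direction. A list was described by gene where the study turns on it or where its share called in 1 direction was at least 2 times that over all reported genes. Some genes that the rule names are not reported here. Alternatives were another pseudocount, filter, variance prior and scaling, subsets of tumors and, added after seeing the data, the adjustments for length and GC content and leaving out PLK2null-7763 as well and, for muscle markers, p53null-2153L and p53null-7435. No 2 tumors held the same library: the closest of 820 pairs differed with a chi-square whose median over genes was 6.39, where sampling noise gives 0.455. Nothing says which tumors share a transplant line. The p-values treat the tumors as independent and can be too small where some share one.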

Additional observations from a re-analysis of the deposited data

How the results depend on the processing

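Plk2 kept its direction and its call under all 13 alternatives. The number of called genes stayed within 1.5 times of 5054 except with the 7 tumors numbered 77 only, which gave 1923 (1249 higher, 674 lower), of which 1237 and 662 were called in the same direction over all tumors. Around Plk2, 2 genes were called with those 7 tumors and 10 after the length and GC adjustment, against 6. The number of higher genes was 1663 after the length adjustment and 1725 after the length and GC adjustment, against 2929. Of 97 named genes that were called, the length and GC adjustment left 80 called in the same direction and the 7 tumors left 67. Mier3 turned to -0.0902 after the length and GC adjustment (adjusted p = 0.578 by limma). Numa1 turned to -0.14 after the length adjustment (adjusted p = 0.412) and to -0.0435 after the length and GC adjustment (adjusted p = 0.800). Against 6 muscle markers that fell, 0 were lower without p53null-2153L and p53null-7435. The 7 tumors leave fewer samples, and the cause of the other changes was not tested. No paired analysis was possible because the replicate numbers were given in accession order within each genotype and tie no tumors together. At these depths a value under 1.16 to 2.45 stands for fewer than 3 reads.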

Other observations

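Hoxa3 and Hoxa4 were named by rule, and the other Hox genes, which set positional identity, were looked at after their values were seen. Of 9 tested genes of the Hoxa cluster 8 were higher in the Plk2-null p53-null tumors, with a median log2 fold change of 3.01. After the length and GC adjustment 6 of them were called as well. Among all reported genes 20.9% were higher and 15.2% lower on the deposited scale. The share higher was 12.3% after the adjustment and 8.92% with the 7 tumors numbered 77. Hoxa5 was at a median of 303 in the Plk2-null p53-null and 19.2 in the p53-null tumors (log2 fold change, 3.26 ± 0.60 SE, adjusted p = 2.83e-05 by limma). The count includes Hoxa6, whose p53-null median of 1.41 lies at the value of 3 reads and which passed the filter through the Plk2-null p53-null tumors. Hoxa10 had a log2 fold change of -0.30 (adjusted p = 0.711). Of the other clusters, 3 of 9 tested Hoxb genes and 1 of 5 Hoxd genes were higher and none lower, and of 8 Hoxc genes 0 were higher and 1 was lower, Hoxc13, at medians of 0 and 4.90, which passed the filter through the p53-null tumors. Among the called genes, Hoxb5 and Hoxd3 also passed the filter only through the Plk2-null p53-null tumors, so these counts do not show a direction by themselves. With the 7 tumors numbered 77, Hoxa3, Hoxa4 and Hoxa6 were called and Hoxa2 and Hoxa5 were not (adjusted p = 0.0524 and 0.0741). Whether these differences follow genotype or the transplant line a tumor came from was not tested.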
